A study of Mus musculus with 6 samples.

Results

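The BMP and TGF-beta signalling genes of the endothelium were followed as a set of 10, chosen by name and by role: the receptors and coreceptor *Bmpr2*, *Acvrl1*, *Eng* and *Tgfbr2*, the ligand *Tgfb1*, the ID genes *Id1*, *Id2* and *Id3*, and the inhibitory SMADs *Smad6* and *Smad7*. All 10 were among the 14625 genes, of 47729 counted, that passed the filter on low counts. Libraries came from lung endothelial cells (ECs) of male mice aged 14 weeks, all on normal chow and all infused with angiotensin II (AngII), a pressor peptide, at 1000 ng/kg/min by osmotic pump for 2 weeks. The groups were wild type (WT, n = 3 libraries) and *leene*-KO (KO, n = 3 libraries), the latter on the C57BL6 background and carrying a CRISPR-Cas9 deletion, global and not limited to ECs, of the mouse region syntenic to the human gene of the long noncoding RNA LEENE. No group without AngII was analysed here, so each difference is one of genotype under AngII. According to the labels, cells enriched by CD31 from 3 mice a group were pooled, whereas the methods of the study name CD144 for the sort, and which mice a library holds is not given. P-values therefore measure the spread between libraries, which may be technical. The *leene* genes are not in the annotation that was counted and were not analysed here.

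As background, BMP and TGF-beta ligands bind pairs of type I and type II receptor kinases, which phosphorylate SMAD proteins that enter the nucleus with SMAD4. In ECs the type I receptor ALK1 (*Acvrl1*), the type II receptor *Bmpr2* and the coreceptor endoglin (*Eng*) transduce circulating BMP9 and BMP10, and loss of any of them is known from inherited vascular disease, telangiectasia for *Acvrl1* and *Eng* and pulmonary arterial hypertension for *Bmpr2*. The ID genes, whose products bind E proteins and keep them from DNA, and *Smad6* and *Smad7*, whose products block the receptors, are induced by the pathway, so receptor transcripts and target transcripts give separate views of it.

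SMAD proteins bind short DNA elements, and the 250 bases upstream of the annotated start were searched on both strands for the GC-rich element GGCGCC, bound by SMADs of the BMP branch, and for the SMAD box CAGAC, which reads GTCTG on the other strand. RefSeq sequence on GRCm38.p6 was at hand for 7 of the 10 genes. GGCGCC was present in 9.65% and CAGAC in 42.2% of all 32536 upstream windows of that length, and the motifs do not overlap in the windows shown. A target, a coreceptor and an inhibitory SMAD are printed because they differ in these letters, with the matches in capitals, 5′ to 3′ on the strand of the gene. The window of *Id2* (chr12:25096093-25096342, minus strand) held 1 GGCGCC, as did that of *Bmpr2*, which is not printed, that of *Eng* (chr2:32646345-32646594, plus strand) held 2 SMAD boxes, and that of *Smad6* (chr9:64022060-64022309, minus strand) held neither. The 3 printed windows lie just outside the gene as counted, in no exon of it. A match is a description of letters and not a bound site.
Id2: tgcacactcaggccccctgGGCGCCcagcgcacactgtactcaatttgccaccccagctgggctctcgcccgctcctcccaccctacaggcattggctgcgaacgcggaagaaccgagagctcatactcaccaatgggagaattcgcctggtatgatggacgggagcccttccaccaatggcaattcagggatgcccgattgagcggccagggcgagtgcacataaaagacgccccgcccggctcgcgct
Eng: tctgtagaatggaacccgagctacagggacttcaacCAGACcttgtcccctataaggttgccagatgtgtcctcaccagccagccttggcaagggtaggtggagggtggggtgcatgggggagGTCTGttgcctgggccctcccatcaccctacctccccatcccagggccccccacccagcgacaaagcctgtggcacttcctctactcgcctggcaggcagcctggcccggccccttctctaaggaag
Smad6: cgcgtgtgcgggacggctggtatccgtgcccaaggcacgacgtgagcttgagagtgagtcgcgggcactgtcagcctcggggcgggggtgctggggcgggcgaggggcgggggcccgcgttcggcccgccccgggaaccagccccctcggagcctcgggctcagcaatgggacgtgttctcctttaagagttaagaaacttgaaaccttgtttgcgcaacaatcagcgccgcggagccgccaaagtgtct

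The libraries held 24464324 to 35184063 counts, of which mitochondrial genes took 37.4% to 54.5%. EC markers were present in every library: *Pecam1*, which encodes CD31, lay between 313 and 583 CPM (counts scaled to library size by edgeR's TMM method) and *Cdh5*, which encodes CD144, between 178 and 753 CPM. Transcripts of other lung cells were present too. The 5 alveolar type II markers summed to 4934, 46390 and 14400 CPM in the WT libraries and to 36570 to 44950 CPM in KO, and macrophage markers to 1476, 13120 and 4664 CPM in WT and to 11510 to 13450 CPM in KO, with *Lyz2*, which both cell types express, the largest among the latter. WT replicate 2 was thus close to the KO libraries in both sums, and the other WT libraries were below them. *Lyz2* alone, at 1428, 13010 and 4549 CPM in WT, made up most of the macrophage sum. The mean log2 CPM of the 7 macrophage markers, centred on the 6 libraries, weighs each gene alike. It was -1.13, 0.27 and 0.18 in WT and 0.76, -0.05 and -0.03 in KO, with WT replicate 3 above KO replicates 2 and 3. In such bulk libraries, fewer cells of a type and less RNA per cell cannot be told apart.

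Among the 10 genes, *Eng* was the most abundant per length of transcript and *Tgfb1* the least. Levels were compared as CPM per kilobase of exon, averaged over the 6 libraries. They were 99.2 for *Eng* and 63.7 for *Acvrl1*, 56.1 for *Id1*, 54.5 for *Id3* and 48.1 for *Smad6*, then 27.2 for *Id2*, 23.8 for *Bmpr2*, 18.1 for *Tgfbr2*, 13.7 for *Smad7* and 7.60 for *Tgfb1*. Of the 9 steps in that order, only those from *Smad6* to *Id2* and from *Smad7* to *Tgfb1* separated neighbours whose ranges over the libraries did not overlap. *Eng* nevertheless stood above *Acvrl1* within each of the 6 libraries, whereas *Id1* stood above *Id3* in the 3 WT libraries and below it in the 3 KO libraries. By group, *Id1* had a mean of 65.5 in WT, above the 55.9 of *Acvrl1*, and of 46.6 in KO, below the 55.3 of *Id3*. *Bmpr2*, with 17983 bases of exon, came first by CPM without division by length but ranked 7 per length.

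**Figure D1:**
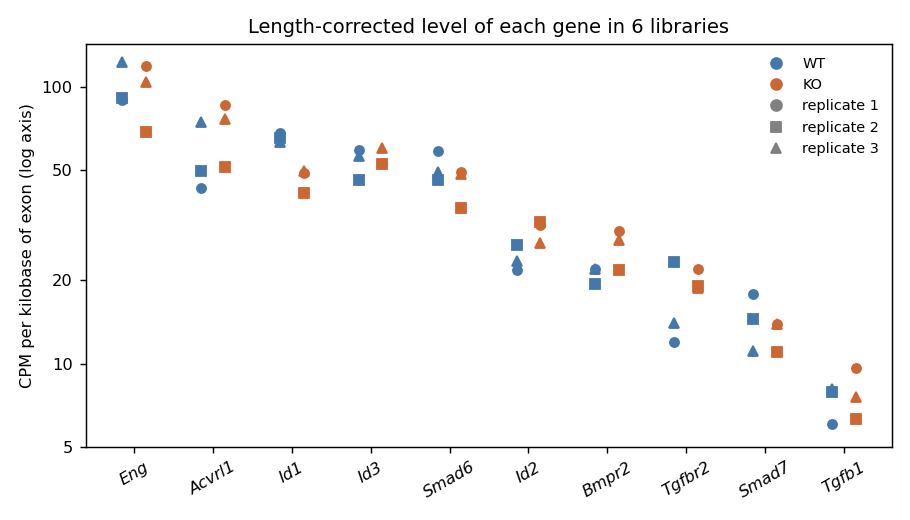
Level of each gene in CPM per kilobase of exon (log axis), 1 point per library, with WT and KO in separate colours and genes in order of their mean. The order runs from *Eng* at 99.2 to *Tgfb1* at 7.60, and most neighbours overlap.

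Of these 10 genes, 0 passed an adjusted p of 0.05 between KO and WT (quasi-likelihood test of edgeR, with Benjamini-Hochberg adjustment over all genes tested), where 0.109% of all genes did (16 of 14625). At an unadjusted p under 0.05 there were 2 of 10, *Id1* lower and *Id2* higher in KO, against 10.3% of all genes. The groups did not overlap for the same 2 of 10 genes, against 17.8% of all genes in either direction. DESeq2 and limma-voom also called 0 of the 10, with 1 and 2 at an unadjusted p under 0.05. The median log2 fold change of the 10 was 0.07 and that of all genes 0.03. An exact two-sided permutation test of 3 libraries against 3 cannot go below 0.1, the value it gave for *Id1* and *Id2*, and it gave 0.2 to 0.9 for the other 8.

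**Figure D2:**
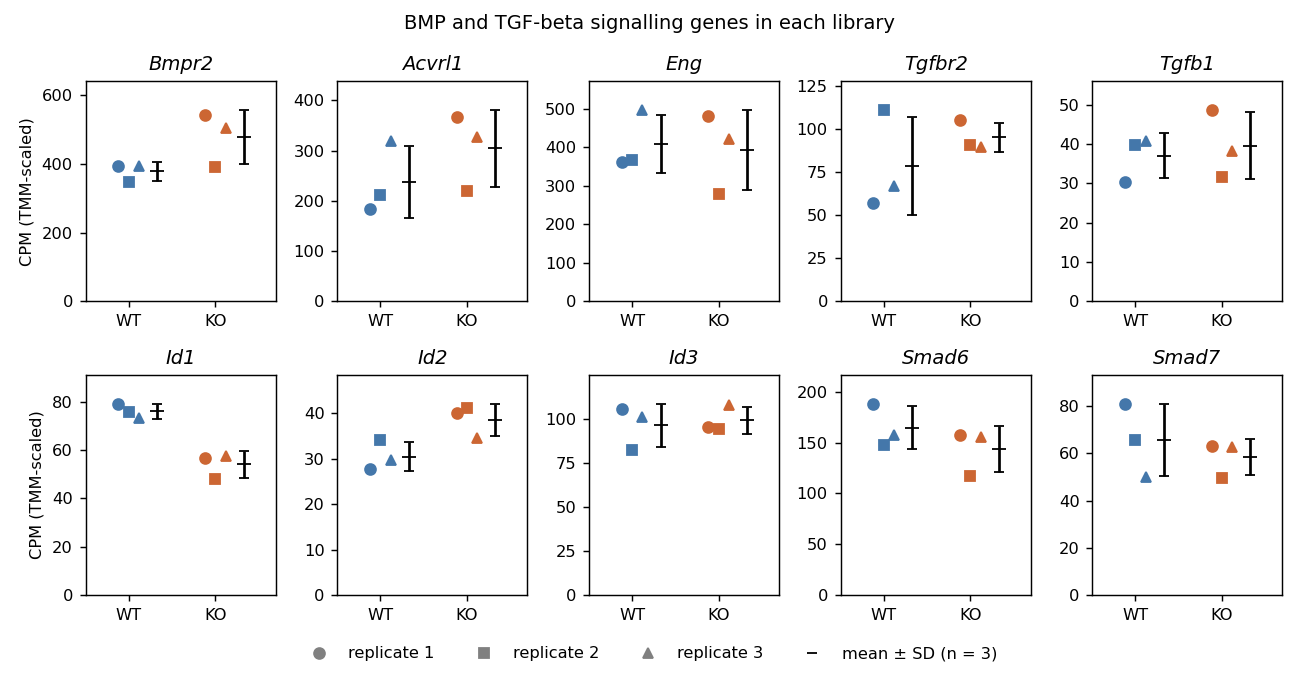
CPM (TMM-scaled, axes from 0) of each of the 10 genes in the 3 WT and 3 KO libraries, 1 point per library with a marker shape for its replicate number, and the mean ± SD beside each group. The *Id1* points of KO (47.8 to 57.5 CPM) all lie below those of WT (73.2 to 79.2), the *Id2* points of KO (34.6 to 41.2) all above those of WT (27.7 to 34.1), and the other 8 genes overlap.

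*Id1* and *Id2*, which encode closely related inhibitors of E proteins, lay on opposite sides between the genotypes, neither past the adjusted threshold. *Id1* (chromosome 2, 152736251 to 152737410, plus strand, GRCm38) was at 79.2, 75.6 and 73.2 CPM across WT and 56.7, 47.8 and 57.5 CPM in KO. Every KO library was below every WT library. The means were 76.0 ± 3.01 CPM (SD, n = 3) and 54.0 ± 5.38 CPM (SD, n = 3), a KO level 0.711 of that in WT, and the log2 fold change was -0.49 (standard error 0.13, 95% confidence interval -0.79 to -0.20). The unadjusted p was 0.00531 and the adjusted p 0.299 with edgeR, and the adjusted p was 0.0992 with DESeq2. *Id1* was also the gene of the 10 with the least spread in WT, with a coefficient of variation of 3.96%. Its log2 fold change was below 0 in all 19 alternative settings, from -0.76 to -0.44, with an unadjusted p under 0.05 in 18 of them, the exception being scaling to the EC markers (0.0561), and an adjusted p of 0.0694 to 0.936.

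*Id2* (chromosome 12, 25093801 to 25096092, minus strand), whose upstream sequence is printed above, was at 27.7, 34.1 and 29.7 CPM across WT and 40.1, 41.2 and 34.6 CPM in KO. The lowest KO library was just above the highest WT library. The log2 fold change was 0.34 (standard error 0.14, 95% confidence interval 0.03 to 0.66), 1.27 times the WT level, with an unadjusted p of 0.0373 and an adjusted p of 0.468 (edgeR). It stayed above 0 in the 19 alternative settings, from 0.11 to 0.41, and kept an unadjusted p under 0.05 in 9. *Id3* (chromosome 4, 136143497 to 136145755, plus strand), which shares the E proteins of *Id1* as partners, was at 105.5, 82.2 and 101 CPM across WT and 94.98, 94.2 and 108 CPM in KO. Its groups overlapped, with a log2 fold change of 0.04 (95% confidence interval -0.31 to 0.39) whose sign turned without WT replicate 2 (-0.10) or KO replicate 3 (-0.02) and under scaling by total counts (-0.14) or to the EC markers (-0.20).

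The ID genes were also set against each other within each library, which removes the scaling, on the log2 CPM scale, where exon length shifts all libraries alike. On that scale the log2 level of *Id2* minus that of *Id1* was -1.51, -1.15 and -1.30 in WT and -0.50, -0.22 and -0.73 in KO, a shift of 0.84 without overlap. *Id1* minus *Id3* was -0.41, -0.12 and -0.46 in WT and -0.74, -0.98 and -0.90 in KO, again without overlap. *Id1* was lower against *Smad6* as well, by a mean of 0.29 on the log2 scale, with WT at -0.97 to -1.25 and KO at -1.29 to -1.48. These are differences between genes in 1 library, of genes whose values had been seen, so they are descriptions without a test. *Id1* enters each of them, so they are not separate observations. The separation of *Id2* minus *Id1* was fixed by the levels of both genes, whose KO libraries lay on opposite sides of WT.

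The inhibitory SMADs, which feed back on the receptors, had lower means in KO with groups that overlapped. *Smad6* (chromosome 9, 63953076 to 64022059, minus strand), which acts mainly on the BMP branch, was at 188, 148 and 158 CPM across WT and 158, 117 and 156 CPM in KO. Its log2 fold change was -0.20 (standard error 0.18, 95% confidence interval -0.62 to 0.22, adjusted p = 0.698 from edgeR). *Smad7* (chromosome 18, 75367529 to 75395935, plus strand), which blocks both branches, was at 81.0, 65.7 and 50.2 CPM across WT and 62.9, 49.6 and 62.7 CPM in KO. WT replicate 3 and KO replicate 2 were the lowest libraries, and the log2 fold change of -0.17 (95% confidence interval -0.63 to 0.29, adjusted p = 0.762) went to 0.004 without WT replicate 1.

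Receptor transcripts gave higher means in KO for 3 of 4, with intervals that all held 0. *Bmpr2* (chromosome 1, 59763400 to 59879014, plus strand), the type II BMP receptor, was at 394.5, 347 and 394 CPM across WT and 542, 390.4 and 504 CPM in KO. KO replicate 2 lay within the WT range and the other KO libraries above it. The log2 fold change was 0.34 (standard error 0.20, 95% confidence interval -0.12 to 0.80, adjusted p = 0.577 from edgeR), and it was above 0 in the 19 alternative settings. *Acvrl1* (chromosome 15, 101128522 to 101145336, plus strand), the ALK1 receptor of ECs, was at 184, 212 and 319.5 CPM across WT and 368, 219 and 327 CPM in KO. Its spread was wide in both groups, with coefficients of variation of 30.1% and 25.2%, and the log2 fold change was 0.35 (standard error 0.28, 95% confidence interval -0.29 to 1.003, adjusted p = 0.651), with 0.60 without WT replicate 3 and 0.17 without KO replicate 1.

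Endoglin, the coreceptor that presents BMP9 to ALK1, did not share the higher mean of its receptor. *Eng* (chromosome 2, 32646595 to 32682669, plus strand) was at 363, 368 and 497 CPM across WT and 481.5, 278 and 421 CPM in KO. WT held the highest library and KO the lowest, and the groups overlapped. The log2 fold change was -0.06 (standard error 0.26, 95% confidence interval -0.65 to 0.54), turning to 0.09 without WT replicate 3 and to 0.11 without KO replicate 2. The 3′ end of *Eng* overlaps *Fpgs* on the other strand, which counting by strand keeps apart.

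*Tgfbr2* (chromosome 9, 116087698 to 116175363, minus strand), the type II TGF-beta receptor, was at 57.2, 111 and 67.0 CPM across WT and 105, 90.9 and 89.5 CPM in KO. The highest and the lowest library were both WT, and WT varied with a coefficient of variation of 36.5% against 8.98% in KO. WT replicate 2, the highest, was also the WT library with the most alveolar type II transcript, while WT replicates 1 and 3 had the least of the 6. The log2 fold change was 0.28 (standard error 0.25, 95% confidence interval -0.30 to 0.85, adjusted p = 0.690 from edgeR). It was 0.58 without WT replicate 2 (unadjusted p = 0.00480, adjusted p = 0.0682), 0.09 without WT replicate 1 and -0.06 with the alveolar type II markers as a covariate. *Tgfb1* (chromosome 7, 25687002 to 25705077, plus strand), the ligand, which leukocytes also make, was at 30.5, 39.9 and 40.9 CPM across WT and 48.7, 31.7 and 38.3 CPM in KO. KO held its highest library and WT its lowest, the log2 fold change was 0.09 (95% confidence interval -0.35 to 0.54), and the sign turned without WT replicate 1 (-0.04) or KO replicate 1 (-0.10), under scaling by total counts (-0.05) or to the EC markers (-0.15), and with the covariate (-0.03).

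**Figure D3:**
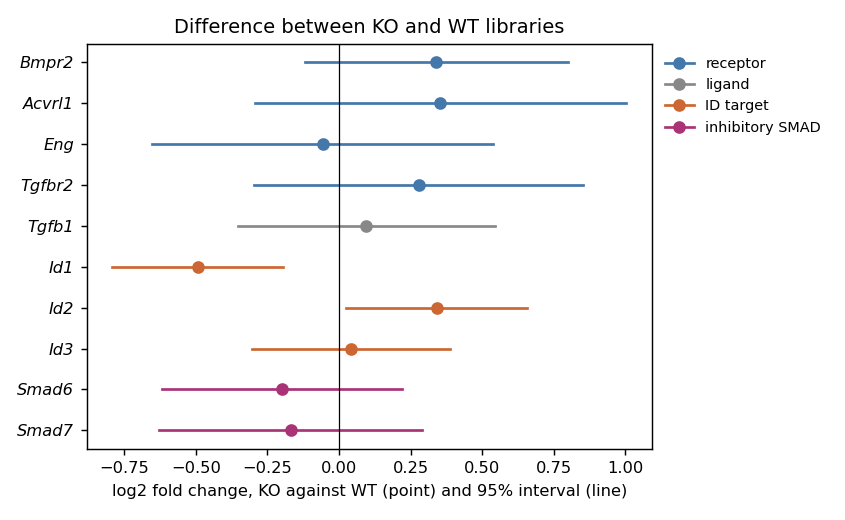
Log2 fold change of KO against WT for the 10 genes (x axis, points) with 95% confidence intervals (bars) from edgeR's quasi-likelihood fit, grouped as receptors, ligand and targets. The intervals of *Id1* (-0.79 to -0.20) and *Id2* (0.03 to 0.66) leave out 0 before adjustment, and the other 8 include it.

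Receptors were then set against targets in each library. The median log2 fold change was 0.31 over the 4 receptors (3 higher, 1 lower, 0 of 4 past the test) and -0.17 over the 5 targets (2 higher, 3 lower, 0 of 5 past the test), beside 0.03 over all genes. Under scaling to the EC markers the medians were 0.05 and -0.49, where that of all genes moved to -0.20. Without WT replicate 1 they were 0.14 and 0.004, without KO replicate 1 0.18 and -0.25, and without KO replicate 2 0.36 and -0.09. The mean log2 CPM of the targets minus that of the receptors was -1.28, -1.68 and -1.85 in WT and -2.11, -1.75 and -1.94 in KO. KO replicate 2 stood above WT replicate 3, so the groups overlapped, and the mean shift of -0.33 was close to the spread of 0.295 (SD, n = 3) in WT.

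The summed receptor level broadly went up and down with EC transcript across libraries of both genotypes, single receptors less evenly. The 15 EC markers summed to 2115, 2579 and 3817 CPM in WT and to 3928, 2491 and 3190 CPM in KO, and the 4 receptors to 998, 1039 and 1277 CPM in WT and to 1496, 979 and 1342 CPM in KO. For both sums KO replicate 1 was the highest library, and WT replicate 1 and KO replicate 2 were the lowest pair. Taken against the mean log2 level of the EC markers, the receptors were at 0.94, 0.93 and 0.44 in WT and at 0.75, 0.80 and 0.83 in KO, a difference of 0.02. Among the receptors, *Acvrl1* kept the closest step with the markers in WT, at 0.83, 0.79 and 0.77, and *Tgfbr2* the loosest, at -0.85, -0.15 and -1.49. On the same scale *Id1* was at -0.38, -0.70 and -1.36 in WT and at -1.73, -1.37 and -1.46 in KO. It was the single gene of the 10 whose groups stayed apart there and WT replicate 3 lay next to the KO libraries.

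**Figure D4:**
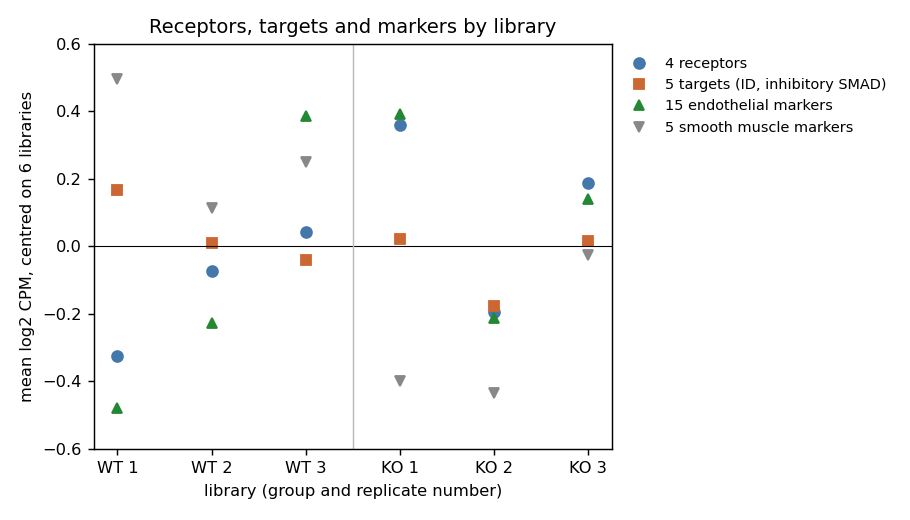
Mean log2 CPM of 4 receptors, 5 targets, 15 endothelial and 5 smooth muscle markers in each library (x axis), each centred on its mean over the 6 libraries. Receptors run from -0.32 in WT replicate 1 to 0.36 in KO replicate 1 beside the endothelial markers (-0.48 to 0.39), whereas the targets stay between -0.18 and 0.17.

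Marker lists whose genes leaned to 1 genotype were measured beside the ID genes, which several lung cell types express. Calls are those of edgeR, with DESeq2's beside them. Over all genes edgeR called 16 of 14625 (0.109%) and DESeq2 187 of 26138 fitted. Smooth muscle markers summed to 205 to 247 CPM in WT and to 129.7 to 171.5 CPM in KO (5 of 5 lower, 0 past the test and 1 with DESeq2, *Tagln*, adjusted p = 0.000497), B cell markers to 126 to 256 and 362 to 458.5 CPM (6 of 6 higher, 2 past the test and 5 with DESeq2), T cell markers to 2.62 to 4.45 and 6.70 to 9.20 CPM (6 of 6 higher, 0 past the test and 0 with DESeq2), and platelet markers to 27.7 to 42.4 and 38.1 to 76.0 CPM (5 of 5 higher, 0 past the test and 0 with DESeq2). Heat shock transcripts summed to 489.6 to 603 CPM in WT and to 169 to 214 CPM in KO (7 of 7 lower, 3 past the test and 7 with DESeq2), and early response transcripts, which cell handling can induce, to 435 to 495 and 305 to 403 CPM (9 of 10 lower, 0 past the test and 2 with DESeq2, *Atf3* and *Nr4a1*). *Fos*, another of the latter, overlapped between the groups and was at 8.47, 14.3 and 5.67 CPM across WT and 3.65, 7.76 and 9.93 CPM in KO. The part of these transcripts in the levels of *Id1* and *Id2* was not tested.

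The wider pathway was read from 113 further genes in 8 lists, of which 102 were tested. Between KO and WT, 1 of the 102 passed the test and fell, 59 were on the higher side and 43 on the lower, and the median log2 fold change was 0.12. At an unadjusted p under 0.05 (edgeR) there were 4 higher and 11 lower among the 102. Over all 14625 genes tested, 822 were higher and 684 lower at that p, 10.3% in either direction. The gene past the test was *Cdkn1a*, which encodes the cell cycle inhibitor p21, a TGF-beta target and also a target of p53. It was at 149.7, 156 and 156 CPM across WT and 51.4, 42.05 and 47.5 CPM in KO. Its groups stood far apart, and the log2 fold change was -1.71 ± 0.14 (standard error), with an adjusted p of 0.0168 (edgeR). The size was -1.96 to -1.67 in the alternative settings and 15 of 19 kept the call. The adjusted p rose to 0.0924, 0.126 and 0.159 without KO replicates 1, 2 and 3, and to 0.0988 with the replicate number as a block.

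**Figure D5:**
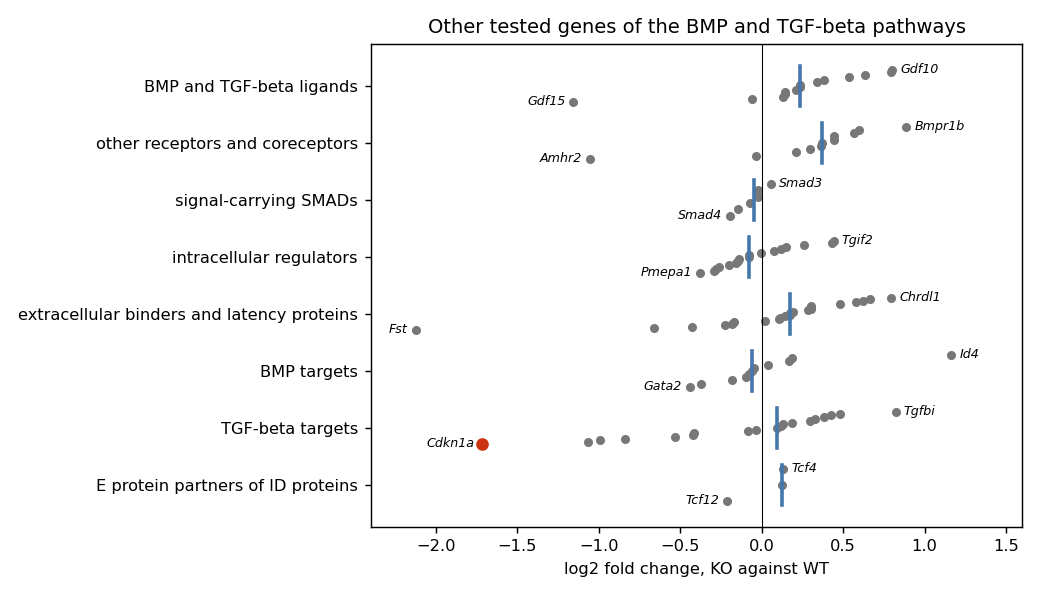
Log2 fold change of KO against WT (x axis) for 102 tested genes in 8 pathway lists, 1 point per gene, with the list median as a bar, the highest and lowest gene named, and genes past the adjusted threshold in red. *Cdkn1a* at -1.71 is the single red point, *Fst* at -2.12 lies lowest and *Id4* at 1.16 highest.

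Other receptors and coreceptors lay on the same side as the receptors above, with 9 of 11 higher, where 7911 of all 14625 genes were. Their median log2 fold change was 0.37 and 0 passed the test. WT replicate 2 was the highest WT library for *Bmpr1a*, *Bmpr1b*, *Acvr1*, *Acvr1b*, *Acvr2a*, *Tgfbr1*, *Rgma* and *Rgmb*, as for the alveolar type II markers. It was not the highest for *Tgfbr3*, *Acvr2b* and *Amhr2*. The part of alveolar type II transcript in these levels was not tested. At an unadjusted p under 0.05 (edgeR) there were 2 of 11, both higher, against 10.3% of all genes in either direction. The type I receptor *Acvr1* was at 9.69, 18.15 and 13.8 CPM across WT and 19.6, 25.4 and 17.8 CPM in KO, with groups that overlapped. Its log2 fold change was 0.59 (unadjusted p = 0.0433, adjusted p = 0.476 from edgeR). The type II receptor *Acvr2a* had a log2 fold change of 0.57 (unadjusted p = 0.0284, adjusted p = 0.451 from edgeR). The extremes were *Bmpr1b*, a type I BMP receptor, at 0.89 and *Amhr2*, the receptor of anti-Müllerian hormone, at -1.05, the latter with means of 0.867 CPM (WT) and 0.412 CPM (KO).

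Ligands were mostly on the higher side too, with 12 of 14 tested, a median of 0.24 and 0 past the test. They lay between *Gdf10* (0.80) and the stress-induced *Gdf15* (-1.16), at 2.60 and 0.464 CPM on average in KO. WT replicate 2 was the highest WT library for *Bmp2*, *Bmp3*, *Bmp4*, *Bmp5*, *Gdf2*, *Gdf15*, *Tgfb2*, *Tgfb3* and *Inhbb*. It was the lowest for *Bmp6*, *Bmp7* and *Gdf11* and in the middle for *Gdf10* and *Inhba*. *Bmp10*, one of the known ligands of ALK1, was among 4 ligands with too few counts to test. *Gdf2*, which encodes BMP9, was tested at low means of 0.365 CPM (WT) and 0.647 CPM (KO). Its log2 fold change was 0.79 (adjusted p = 0.639 from edgeR), with groups that overlapped. The SMADs that carry the signal lay close to 0. Of *Smad1*, *Smad5* and *Smad9* of the BMP branch, *Smad2* and *Smad3* of the TGF-beta branch and the shared *Smad4*, 5 of 6 were on the lower side, from *Smad3* (0.06) to *Smad4* (-0.20), with 0 past the test. The intracellular regulators gave 11 of 17 lower with a median of -0.08, between *Tgif2*, a repressor of SMAD transcription (0.44), and *Pmepa1*, an inhibitor that TGF-beta induces (-0.38), and 0 past the test.

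Extracellular binders and latency proteins gave 16 of 22 higher, a median log2 fold change of 0.18 and 0 past the test. *Chrdl1*, a BMP antagonist, was highest at 0.79 (unadjusted p = 0.0172, adjusted p = 0.391 from edgeR). *Fst*, which encodes the activin binder follistatin, was lowest at -2.12. It was at 2.52, 18.03 and 6.70 CPM in WT and near 2.08 CPM in KO, and passed with DESeq2 (adjusted p = 0.0176) but not with edgeR (adjusted p = 0.365). WT replicate 2 alone carried most of its WT level.

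Target lists outside the 10 genes were split as well. BMP targets gave 4 of 11 higher with a median of -0.06 and 0 past the test, and the fourth ID gene, *Id4*, was highest at 1.16 (1.71, 1.03 and 1.92 CPM in WT, mean 3.46 ± 1.04 CPM in KO, SD, n = 3, adjusted p = 0.357 from edgeR). *Gata2*, an EC transcription factor, was lowest at -0.44, with 158, 131 and 157 CPM in WT and a mean of 109.8 ± 14.6 CPM in KO (adjusted p = 0.446). At an unadjusted p under 0.05 (edgeR), *Id1* was lower in KO, *Id2* and *Id4* were higher, and *Id3* was in neither. The share of all genes at that p was 10.3%. *Id4* had fewer counts than the other ID genes and is named as the extreme of its list, so this is no result for the family. TGF-beta targets gave 10 of 19 higher with a median of 0.09, from *Tgfbi* (0.82), an extracellular matrix gene whose WT libraries spread from 15.7 to 72.3 CPM, to *Cdkn1a*. Among those lower at an unadjusted p under 0.05, *Acta2* and *Tagln*, the latter past the threshold with DESeq2, are also on the smooth muscle list, *Junb* is also on the early response list, and *Ccn2*, a matricellular gene, had a log2 fold change of -0.84. The E proteins that ID proteins bind, *Tcf3*, *Tcf4* and *Tcf12*, lay between -0.21 (*Tcf12*) and 0.13 (*Tcf4*).

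Finally, the genes whose pattern over the 6 libraries was nearest to that of the receptors and of the targets were looked up among 5602 genes with a mean log2 CPM of at least 4. Likeness was measured as the root-mean-square distance between log2 levels centred on their means. Nearest to the receptors were the receptor kinase *Mertk* (0.06), the EC surface gene *Ecscr* (0.07) and *B2m*, the light chain of class I molecules (0.07), with log2 fold changes of 0.16 to 0.28. Nearest to the targets were *Glud1* (0.02), a mitochondrial enzyme, *Ulk2* (0.03), a kinase of autophagy, and *Azi2* (0.03), with log2 fold changes of -0.11 to -0.05. By distance from the receptors the EC markers took positions far apart. *Pecam1* was at position 213, *Tek* at 323, *Sox18* at 855, *Tie1* at 1954, *Kdr* at 3416 and *Cdh5* at 4765. That distance counts the size of a gene's swing as well as its order over the libraries. *Cdh5* was lowest in WT replicate 1 (178 CPM) and highest in KO replicate 1 (753 CPM). The mean log2 level of the receptors had the same lowest and highest library but a narrower swing. The positions are a description over 6 libraries that differed in depth and cell makeup.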

How the data were processed

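RNA-seq of poly(A) RNA from sorted lung ECs (CD31 per the labels, CD144 in the study's methods) was analysed in 3 WT and 3 KO libraries, grouped by the genotype label. The authors deposited raw counts per gene, without normalization. According to the file headers, featureCounts 2.0.0 counted uniquely aligned reads on the reverse strand over Ensembl release 84 exons of GRCm38, and the submitters' notes name STAR 2.5.4b and bcl2fastq 2.18. Reads over near-identical genes were dropped by that counting. Symbols came from GENCODE.

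Counts were tested in R 4.3.3 with edgeR 4.0.16 (filterByExpr, TMM, glmQLFit, glmQLFTest, genotype as the only term), two-sided, with Benjamini-Hochberg adjustment over 14625 genes and a threshold of 0.05. Replicates had a biological coefficient of variation of 0.256. CPM used TMM-scaled library sizes, and log2 CPM a prior count of 2. Every pair of libraries differed by more than sampling noise (lowest chi-square per degree of freedom 37.0). The script was tested on simulated data. The 19 alternatives included DESeq2 1.42.0, limma-voom (limma 3.58.1), other scalings and filters, an alveolar type II covariate, a replicate block and each library left out. The 10 genes and all lists were chosen with earlier results of these data known. The text names the 10 genes, called pathway genes and the extremes of each list, the 3 nearest patterns, and *Pecam1*, *Cdh5*, *Lyz2* and *Fos* as checks. Others, such as *Acvr1*, were named after their values were seen. Upstream sequences are RefSeq's on GRCm38.p6, without *Id1*, *Acvrl1* and *Smad7*.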

Additional observations from a re-analysis of the deposited data

How the results depend on the processing

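None of the 10 genes passed an adjusted p of 0.05 in any of the 19 alternatives. The count over all genes, 16 (5 higher, 11 lower), was 187 with DESeq2, 26 with limma-voom, 26 with RLE and 31 with upper-quartile scaling, 123 with total counts (61 higher, 62 lower), 53 with scaling to EC markers, 152 without a filter and 49 with the alveolar type II covariate. Leaving out 1 library gave 0 to 791 calls, 791 without WT replicate 2 and 0 without each KO replicate in turn. With the replicate number as a block there were 0 calls and 0 of the 10 genes. Same-numbered libraries correlated at -0.08, 0.22 and 0.01 in their deviations, so the numbers were not taken as pairs. WT replicate 3 with KO replicate 1 and WT replicate 1 with KO replicate 3 were each at 0.19. The other unlike-numbered pairs were at -0.18 to -0.07, and pairing other than by number was not tested. The cause of these shifts was not tested.

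The median of the targets, -0.17, was -0.39 with total counts, -0.49 with EC marker scaling, -0.035 with the covariate and -0.25 to 0.004 with 1 library left out, and that of the receptors, 0.31, was 0.052 with EC marker scaling. All-gene medians were -0.13 and -0.20 under those scalings. *Tgfb1* turned negative with total counts (-0.045), EC marker scaling (-0.15) and the covariate (-0.030), *Id3* with the first (-0.14) and the second (-0.20), and *Tgfbr2* with the covariate (-0.056). With 1 library left out, ranges were -0.10 to 0.21 for *Tgfb1*, -0.10 to 0.11 for *Id3*, -0.35 to 0.004 for *Smad7* and -0.25 to 0.11 for *Eng*. *Bmpr2*, *Acvrl1*, *Id1*, *Id2* and *Smad6* kept their direction in 19 of 19.

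Each group held 3 libraries, and the part of library number in the lack of calls among the 10 genes was not tested. EC purity, the mice behind a library and the sort marker could not be settled from the files.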

Other observations

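The ratio of the ALK1 receptor to its coreceptor was looked at after their values had been seen, and is given without a test. The log2 level of *Acvrl1* minus that of *Eng* was -0.98, -0.80 and -0.64 in WT and -0.39, -0.35 and -0.36 in KO. The 3 KO libraries lay within an SD of 0.02 although their receptor and EC transcript levels differed widely, and all were above the WT libraries, by 0.44 on average. *Eng* minus the EC markers was 1.82, 1.58 and 1.40 in WT and 1.35, 1.17 and 1.41 in KO, which overlapped in WT replicate 3 and KO replicate 3.

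EC subtype markers gave no list with a gene past the test. The aerocyte list (*Car4*, *Ednrb*, *Apln*, *Tbx2* and *Fibin*) was higher for 5 of 5 with a median log2 fold change of 0.43, the general capillary list for 3 of 5 with 0.05, the artery list for 2 of 5 with -0.08, the vein list for 1 of 3 with -0.14 and the lymphatic list for 3 of 5 with 0.19. The aerocyte markers summed to 214, 225 and 327 CPM in WT and to 436, 241 and 365 CPM in KO, and the groups overlapped.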
